A study of Homo sapiens with 6 samples.

Results

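IFI6, IFI27, IFI27L1, IFI27L2, IFI44 and IFI44L were taken as the clusters that the array annotation gives 1 of these gene symbols. Each of the 6 genes had 1 transcript cluster, a set of probes that reads 1 transcribed locus, out of 33297 clusters on the array, and no cluster with several symbols held any of them. RNA came from HEK293 cells, a human embryonic kidney line obtained from ATCC, and was read on 6 Affymetrix Gene 1.0 ST arrays, 3 labelled treatment and 3 labelled control. The labels disagree on the cells: the source field gives a Neo vector for the treatment cells and a transient vector for the control cells, while the study's design sets cells transfected with the empty plasmid pCMV9 against untreated cells. The groups are therefore called treatment and control. The stated question was which mediators accompany an anti-HIV effect of empty vector transfection. The labels do not state whether each replicate was a culture of its own, so the spread behind each p-value may be technical only.

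The 6 genes form 2 families, both known for their response to interferon. IFI6 and IFI27 belong to a family of small, hydrophobic proteins of the endoplasmic reticulum, mitochondria and nuclear envelope. IFI6 guards cells against flaviviruses at the endoplasmic reticulum, where it works with the chaperone HSPA5, and IFI27 has been tied to apoptosis and to the loss of viral proteins. IFI27L1 and IFI27L2 are less studied relatives whose genes lie on either side of IFI27. IFI44 and IFI44L are neighbouring, related genes for cytoplasmic proteins, and both have been reported to dampen interferon signalling through the chaperone FKBP5. Type I and type III interferons act on different receptors, but both lead to ISGF3, a transcription factor complex that includes IRF9 and binds the interferon-stimulated response element, a repeat of the letters GAAA, in the promoters of its target genes.

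The bases before the start of each gene are shown because the 4 genes that rose in the treatment arrays hold the core of the interferon-stimulated response element there and the other 2 do not. The part of these matches in the changes was not tested. The sequences come from RefSeq on GRCh38.p14, where all 6 genes matched by symbol, and each runs 5′ to 3′ on its gene's strand over the 250 bases up to the annotated start. The capitals mark matches to the core of the element on either strand, that is GAAA, any 2 bases and GAAA, or TTTC, any 2 bases and TTTC where it lies on the opposite strand. IFI6 lies on the minus strand at chr1:27672193-27672442, IFI27 on the plus strand at chr14:94110486-94110735, IFI44 on the plus strand at chr1:78649539-78649788 and IFI44L on the plus strand at chr1:78620198-78620447. IFI27L1 lies on the plus strand at chr14:94081060-94081309 and IFI27L2 on the minus strand at chr14:94129605-94129854. IFI27 and IFI44 have a second annotated start shortly after the one shown, whose window holds the same matches.
IFI6: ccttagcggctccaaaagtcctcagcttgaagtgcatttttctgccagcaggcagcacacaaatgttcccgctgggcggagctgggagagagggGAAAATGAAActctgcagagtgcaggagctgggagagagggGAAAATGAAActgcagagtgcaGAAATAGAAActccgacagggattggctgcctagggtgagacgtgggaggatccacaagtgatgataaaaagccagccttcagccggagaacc
IFI27: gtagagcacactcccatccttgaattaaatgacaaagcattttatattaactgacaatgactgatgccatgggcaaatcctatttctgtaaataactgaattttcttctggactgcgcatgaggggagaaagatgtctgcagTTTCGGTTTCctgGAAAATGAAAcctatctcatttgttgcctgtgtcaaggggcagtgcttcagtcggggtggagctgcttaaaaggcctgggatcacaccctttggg
IFI44: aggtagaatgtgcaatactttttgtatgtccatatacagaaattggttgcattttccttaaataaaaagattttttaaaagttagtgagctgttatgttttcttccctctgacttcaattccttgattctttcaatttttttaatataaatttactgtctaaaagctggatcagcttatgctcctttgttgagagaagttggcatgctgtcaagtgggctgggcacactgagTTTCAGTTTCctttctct
IFI44L: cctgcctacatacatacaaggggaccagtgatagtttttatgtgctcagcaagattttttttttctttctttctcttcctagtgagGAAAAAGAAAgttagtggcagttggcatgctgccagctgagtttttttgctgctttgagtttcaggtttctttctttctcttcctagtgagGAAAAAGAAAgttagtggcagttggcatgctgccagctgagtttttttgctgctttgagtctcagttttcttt
IFI27L1: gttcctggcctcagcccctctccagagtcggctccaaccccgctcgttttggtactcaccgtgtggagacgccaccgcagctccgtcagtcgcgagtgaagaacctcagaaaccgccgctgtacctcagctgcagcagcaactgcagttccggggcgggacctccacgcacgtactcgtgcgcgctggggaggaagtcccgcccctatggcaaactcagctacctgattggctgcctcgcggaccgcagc
IFI27L2: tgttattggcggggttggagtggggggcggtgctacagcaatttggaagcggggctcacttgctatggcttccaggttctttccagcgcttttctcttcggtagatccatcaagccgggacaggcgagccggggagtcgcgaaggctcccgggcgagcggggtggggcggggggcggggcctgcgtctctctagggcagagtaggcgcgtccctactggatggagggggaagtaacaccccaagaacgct

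IFI6 held 3 matches, with first bases at -156, -115 and -93 from the start, and 2 of them lie in a 29-base stretch that the promoter carries in 2 exact copies. IFI27 held 2 matches, from -108 on the opposite strand and from -95 on its own strand. IFI44L held 2, at -164 and -73, each in a copy of an exact 85-base repeat whose copies start 91 bases apart. IFI44 held 1 match, on the opposite strand at -18. The windows of IFI27L1 and IFI27L2 held 0 matches. The bases shown for these genes are also the richest in G and C, at 64.8% and 64%. The bases shown for the genes with matches hold from 34% (IFI44) to 53.6% (IFI6) G and C. Among all 35116 promoters of the same 300-base length in the table, 250 bases before and 50 after the start, 3.57% held at least 1 match, 0.259% held 2 or more and 0.037% held 3 or more. An exact repeat of 29 bases or longer was present in 1.16% of these promoters, and of 85 bases or longer in 0.231%.

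**Figure D1:**
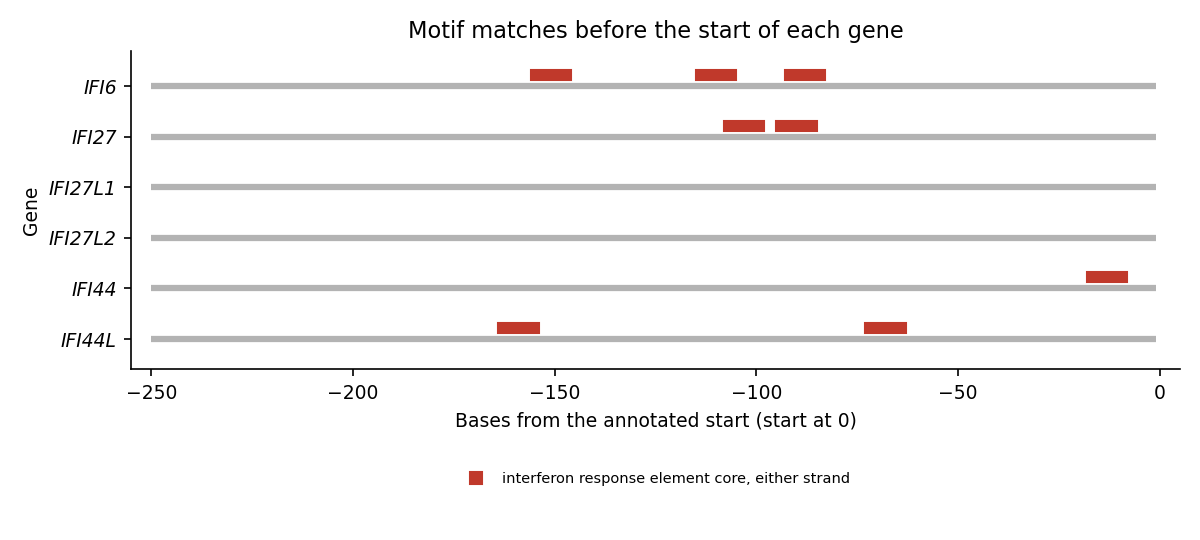
Positions of motif matches in the 250 bases before the annotated start of each gene, in bases from the start on the horizontal axis, with 1 row per gene. Red blocks are matches to the response element core on either strand: IFI6 has 3 red blocks, IFI27 and IFI44L have 2 each, IFI44 has 1, and the IFI27L1 and IFI27L2 rows are empty.

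Of the 6 genes, 4 rose in the treatment arrays and 2 did not pass the test. IFI44, IFI44L, IFI27 and IFI6 had a log2 change of 4.11, 3.31, 2.67 and 2.58, and each of their treatment arrays lay above each of their control arrays. The count of 4 of 6 stands against 0.357% of all 33297 clusters that passed in that direction, while 0.015% passed as decreases. Every treatment array lay above every control array in 7.47% of all clusters. "Rose" here means an adjusted p under 0.05 in limma, fitted to log2(intensity + 16) and adjusted by Benjamini-Hochberg over all clusters. A log2 change is the treatment mean minus the control mean on that scale, which understates the change of dim clusters. The genes were picked with earlier results of these arrays known, so the count is a description.

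IFI44 gave intensities of 746, 1209 and 1080.2 in treatment replicates 1, 2 and 3, against 42.05, 34.6 and 51.8 in control replicates 1, 2 and 3. All 3 treatment arrays were far above all 3 control arrays, and the lowest of them was replicate 1. Mean intensity was 1012 ± 239 in treatment and 42.8 ± 8.61 in control arrays (SD, n = 3 each), a 23.6-fold ratio of the means. The log2 change of 4.11 ± 0.229 (SE) had a limma adjusted p of 8.88e-07, and by unadjusted p it placed IFI44 at rank 2 of all clusters. Each control value lay below that array's 95th percentile of 381 clusters of genes for olfactory receptors, which a kidney line should not use. That percentile ran from 54.8 to 77.2 on treatment arrays and from 52.4 to 56.02 on control arrays, and over group means it was 63.4 in treatment and 50.7 in control. The control level of IFI44 thus cannot be told from background, and its fold depends on the offset: offset 50 gave a log2 change of 3.49 and a log2 without offset 4.55.

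IFI44L gave 2124, 2532 and 2028 in the treatment arrays, against 165, 195 and 281 in the control arrays. The groups did not overlap, and the treatment arrays lay within 0.318 of each other on the log2 scale, the narrowest treatment range of the 6 genes. Means were 2228 ± 267 in treatment and 214 ± 60.3 in control arrays (SD, n = 3 each). The log2 change was 3.31 ± 0.227 (SE; limma, adjusted p = 3.28e-06), at rank 12 of all clusters. IFI44L was above the olfactory receptor level in both groups, and its change ran only from 3.13 to 3.51 over 17 alternative settings.

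The log2 change of IFI44 was larger than that of its neighbour by 0.80, with a pooled SD between arrays of 0.286. In the exact permutation test of that difference over the 6 arrays the two-sided p was 0.1, the smallest that 20 splits allow, so this design cannot reach 0.05, and 0.133 after adjustment over the 4 pairs of genes compared. Offset 50 gave a difference of 0.37 and a log2 without offset 1.14. Its direction held under each of 11 alternative settings.

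IFI6 gave 1346, 2063 and 2722 in the treatment arrays, against 293, 303 and 352 in the control arrays. The control arrays lay close together, while the highest treatment array was about 1.0 above the lowest on the log2 scale. Means were 2044 ± 688 in treatment and 316 ± 31.3 in control arrays (SD, n = 3 each). IFI6 rose by 2.58 ± 0.25 (SE) on the log2 scale (limma, adjusted p = 8.84e-05), at rank 34 of all clusters. Every array of IFI6 lay above the olfactory receptor level. Its call ended on a log2 without offset (adjusted p = 0.082, the highest over 17 alternatives), where the change itself was 2.64.

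IFI27 gave 174, 281 and 415 in the treatment arrays, against 41.5, 17.3 and 32.8 in the control arrays. The groups were apart, and treatment replicate 3 was again the highest array and treatment replicate 1 the lowest treatment array, as for IFI6. Means were 290.2 ± 121 in treatment and 30.6 ± 12.3 in control arrays (SD, n = 3 each), a 9.50-fold ratio. IFI27 rose by 2.67 ± 0.294 (SE) on the log2 scale (limma, adjusted p = 0.000297), at rank 44 of all clusters. All its control arrays lay below the olfactory receptor level, so the control level cannot be told from background. Offset 1 ended the call (3.20, adjusted p = 0.0686), as did a log2 without offset (3.25, adjusted p = 0.166, the highest over 17 alternatives), although both gave a larger change.

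IFI27 and IFI6 differed in their log2 change by 0.0955, less than the pooled SD between arrays of 0.303 (exact permutation test, two-sided p = 0.7, adjusted p = 0.7 over 4 pairs). The direction of that small difference depended on the scale. It was -0.44 at offset 50, 0.61 on a log2 without offset and -0.10 without control replicate 2, the control array with the lowest IFI27 value.

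IFI27L1 gave 130.4, 112 and 185 in the treatment arrays, against 105, 114 and 105 in the control arrays. Treatment replicates 1 and 3 lay above the control range and treatment replicate 2 inside it. The log2 change was 0.33 with a 95% interval from -0.14 to 0.79 (limma, adjusted p = 0.751). IFI27L2 gave 151, 142 and 230.3 in the treatment arrays, against 159, 113 and 183 in the control arrays. The groups overlapped, and again the highest array was treatment replicate 3. Its log2 change was 0.18 with a 95% interval from -0.34 to 0.70 (limma, adjusted p = 0.888). Both genes lay above the olfactory receptor level in both groups, so their signal was not at background. Changes of the size seen for IFI27 lie outside both intervals, whereas rises of up to 0.79 and 0.70 on the log2 scale do not.

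The log2 change of IFI27 was larger than that of IFI27L1 by 2.35 and than that of IFI27L2 by 2.49, with pooled SDs between arrays of 0.458 and 0.319. Both differences had a two-sided p of 0.1 in the exact permutation test, the smallest it can give here, and an adjusted p of 0.133. The 2 differences stayed positive under each of 11 alternative settings, between 1.76 and 2.88 for IFI27L1 and between 1.88 and 3.05 for IFI27L2.

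**Figure D2:**
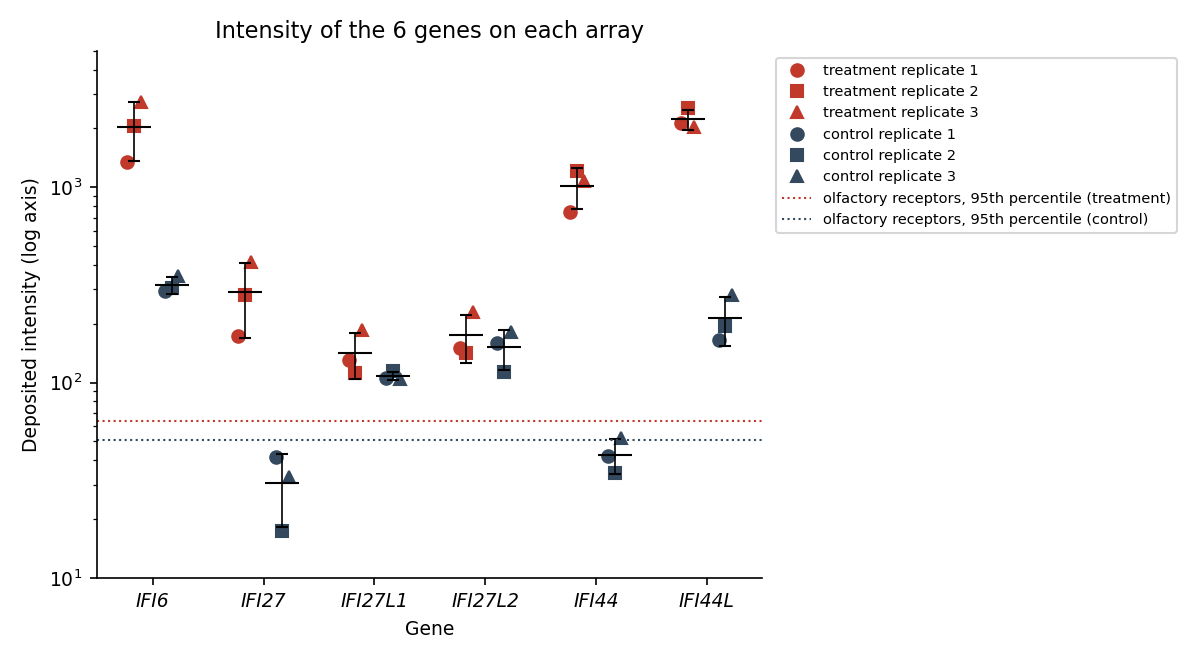
Deposited intensity of each gene on each array on a log axis, with treatment arrays in red left of control arrays in dark blue, marker shapes for the 3 replicates, and black bars for the mean and SD. Dotted lines give the 95th percentile of olfactory receptor clusters, 63.4 in treatment and 50.7 in control means, and the control means of IFI27 (30.6) and IFI44 (42.8) lie under them.

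The genes that rose differed in which treatment array was highest. Relative to each gene's control mean, IFI6 stood at 2.04, 2.65 and 3.05 in treatment replicates 1, 2 and 3 on the log2 scale, and IFI27 at 2.07, 2.71 and 3.25. IFI44 stood at 3.71, 4.39 and 4.23, and IFI44L at 3.25, 3.50 and 3.18, so both had their highest array in replicate 2. Treatment replicate 3, the highest array of IFI6 and IFI27, was also that of IFI27L1 (0.69) and IFI27L2 (0.58). That array stood apart from the rest, with a mean Pearson r of 0.963 with the other arrays over all clusters, against 0.972 to 0.978 for the others. Its olfactory receptor clusters had a 95th percentile of 77.2, against 52.4 to 56.5 on the other arrays, and the part of this in the 4 values was not tested. Without that array IFI6 changed by 2.35, IFI27 by 2.39, IFI27L1 by 0.14 and IFI27L2 by -0.019 on the log2 scale, and the calls of IFI6 and IFI27 held.

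**Figure D3:**
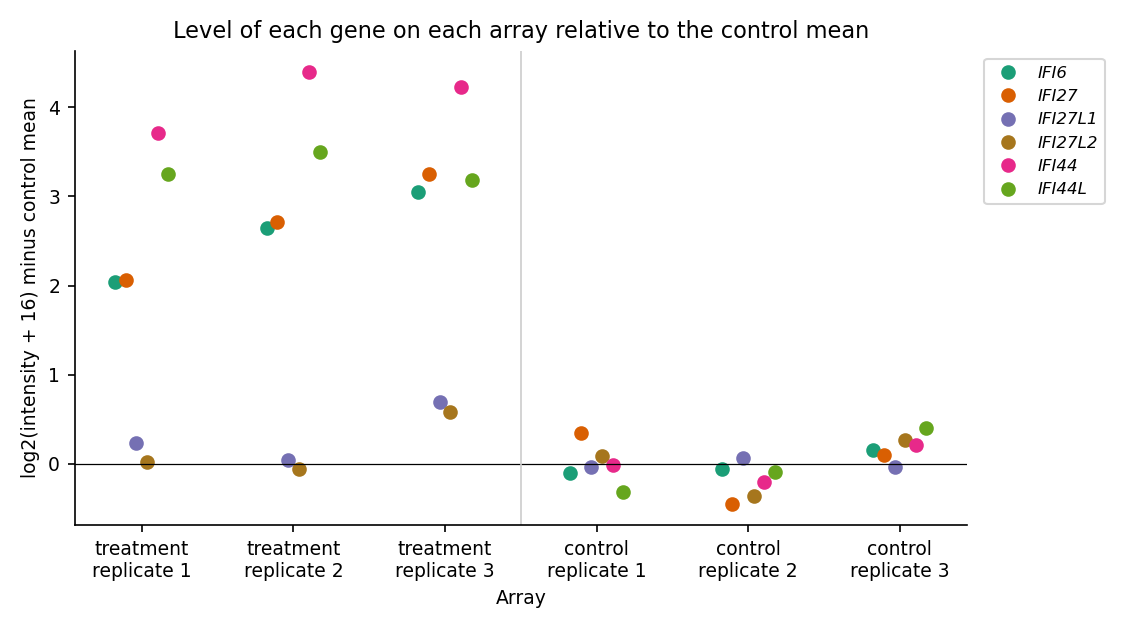
Each gene's log2(intensity + 16) minus its control mean, by array, with the 3 treatment arrays left of the 3 control arrays and 1 coloured point per gene. IFI44 is the highest point in every treatment array (3.71, 4.39 and 4.23), IFI6 and IFI27 lie side by side with their highest values in treatment replicate 3, and IFI27L1 (0.69) and IFI27L2 (0.58) have their highest values in that array too, with their other points between -0.35 and 0.27.

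The nearest profiles were sought among genes outside the 6 with a cluster of their own symbol, by the root mean square difference in log2(intensity + 16) minus the control mean over the 6 arrays. Among the members themselves, IFI6 and IFI27 were 0.257 apart, IFI27L1 and IFI27L2 0.244, and IFI44 and IFI44L 0.611. Outside the 6, nearest to IFI6 were IFI35, an interferon-induced leucine zipper protein (0.146), the T-cell attractant CCL5 (0.151) and the ubiquitin-like modifier ISG15 (0.194). Outside the 6, nearest to IFI27 were CCL5 (0.234), BST2, which tethers budding virions (0.295), and IFI35 (0.300). IFI44 was nearest to TRIM22, a RING-finger protein that restricts HIV (0.155), the RNA-binding protein IFIT2 (0.181) and MX2, a dynamin-like inhibitor of HIV (0.3003). IFI44L was nearest to IFIT3, a partner of IFIT1 (0.187), the mitochondrial nucleotide kinase CMPK2 (0.2498) and OAS3, which makes the activator of RNase L (0.278). The control means of CCL5 (30.6), BST2 (21.7) and MX2 (10.5) lay below the olfactory receptor level, as did those of IFI27 and IFI44. Distances that involve these genes depend on the offset, and other offsets were not tried for them. With 3 arrays a group all these distances mostly reflect the size of the change, and they are a description.

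The 3 nearest genes on each side of each of the 3 loci that had a cluster of their own symbol gave 18 neighbours, of which 0 rose and 0 fell in limma, where 0.372% of all clusters passed. An unadjusted p under 0.05 was found for 2 of the 18, against 7.3% of all clusters, and groups that did not overlap for 4, against 14.6%. Counts this small are near those shares and are no result about the neighbours. Their log2 changes ran from -0.50 to 0.46 with a median of 0.01, and the median over all clusters was 0.0116. Between them, the RNA helicase DDX24, before the IFI27 locus, had means of 931 ± 83.2 in treatment and 935 ± 95.6 in control arrays (SD, n = 3 each). Beside IFI44L and IFI44, the co-chaperone DNAJB4 gave 0.37 ± 0.223 (SE; limma, adjusted p = 0.728) and GIPC2 0.43 ± 0.203 (adjusted p = 0.691), while the adhesion receptor ADGRL2 gave -0.23 ± 0.203 (adjusted p = 0.809). Beside IFI6, the tyrosine kinase FGR had the highest value of the 18 (0.46 ± 0.239, limma, adjusted p = 0.702), and AHDC1 (-0.49 ± 0.200, adjusted p = 0.67) and the small Cajal body RNA SCARNA1 (-0.50 ± 0.209, adjusted p = 0.674) had the lowest. Of the 16 neighbours with a promoter in the table, 1 held the response element core, against 4.38% of all genes in it.

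**Figure D4:**
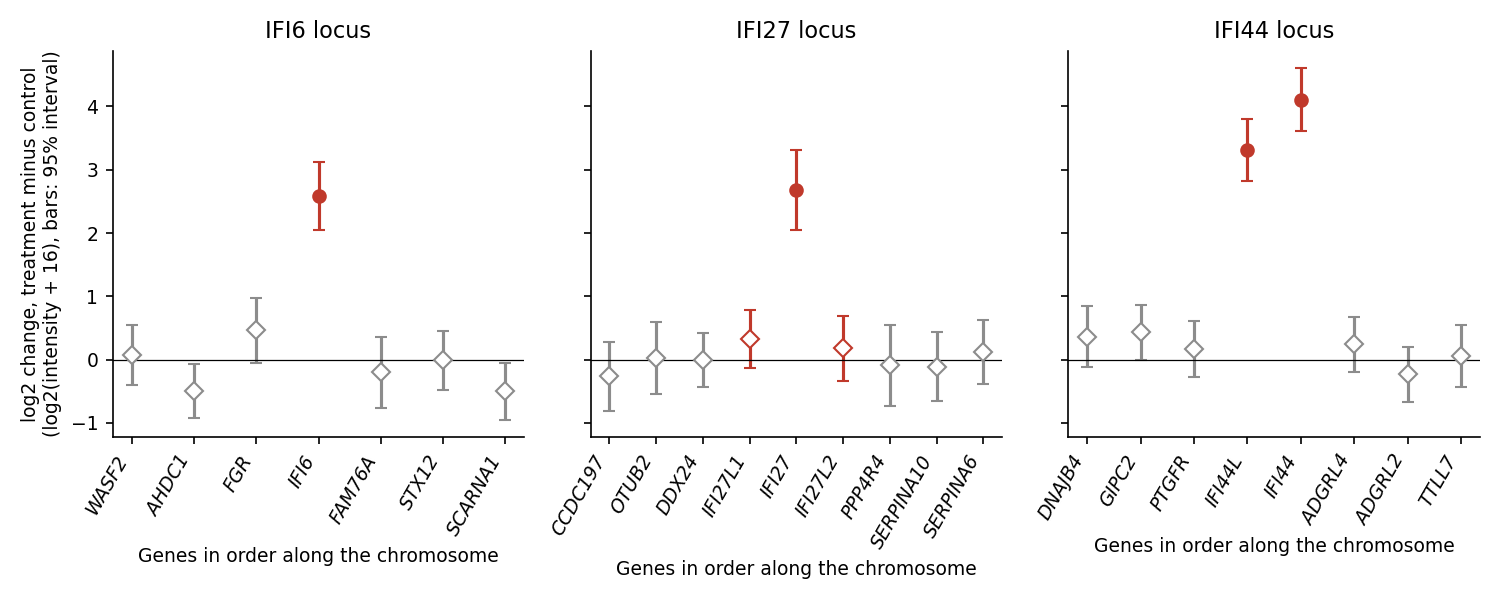
Log2 change, treatment minus control, with its 95% interval for each gene and its neighbours in order along the chromosome at the IFI6, IFI27 and IFI44 loci. Red marks the 6 genes and grey their neighbours, filled circles passed and open diamonds did not: IFI6, IFI27, IFI44L and IFI44 stand between 2.58 and 4.11, while the 18 neighbours lie between -0.50 and 0.46.

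Of 80 other interferon-stimulated genes on a list drawn up with earlier results of these arrays known, 76 had a cluster of their own symbol and the other 4 were not analysed here. Of the 76, 60 rose, 0 fell and 16 did not pass, which is 78.9% that rose against 0.357% of all clusters. Their median log2 change was 1.87. On this scale 6 of them had a larger log2 change than IFI44, 12 than IFI44L, 19 than IFI27, 20 than IFI6, 72 than IFI27L1 and 73 than IFI27L2. The control means of 17 of the 76 lay below the olfactory receptor level, as did those of IFI44 and IFI27, so the places depend on the offset. Without offset the numbers were 5 for IFI44, 17 for IFI44L, 17 for IFI27 and 26 for IFI6, and at offset 50 they were 4, 10, 26 and 15 for the same genes. The lowest p belonged to RSAD2 (viperin, 4.59), IFIT2 (4.31), IFIT3 (3.40) and OAS2 (4.60), each with a limma adjusted p of 8.88e-07. The ISGF3 subunit IRF9 did not pass (1.02, adjusted p = 0.136), nor did B2M, LGALS3BP, SHISA5, EIF2AK2, PSMB8, IFITM2, RTP4, ADAR, BATF2, LY6E and PARP10, with log2 changes from 0.61 to 0.94. PSMB8 and RTP4 among these lay below the olfactory receptor level in both groups. MOV10 gave 0.22, and GBP5, ZBP1 and GBP2, which did not pass, lay below that level in both groups too, so no change is given for them. Groups did not overlap for 70 of the 76, against 14.6% of all clusters. Among the 16 that did not pass, only BATF2, PARP10, MOV10, GBP5, ZBP1 and GBP2 had groups that overlapped. IRF9 gave 397, 589 and 678 in treatment and 270, 235 and 276 in control arrays. In simulated data the calls recovered only 22% of 2-fold changes in intensity + 16. Not passing thus does not show that a gene was unchanged. The count of 60 became 25 on a log2 without offset and 36 at offset 1.

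**Figure D5:**
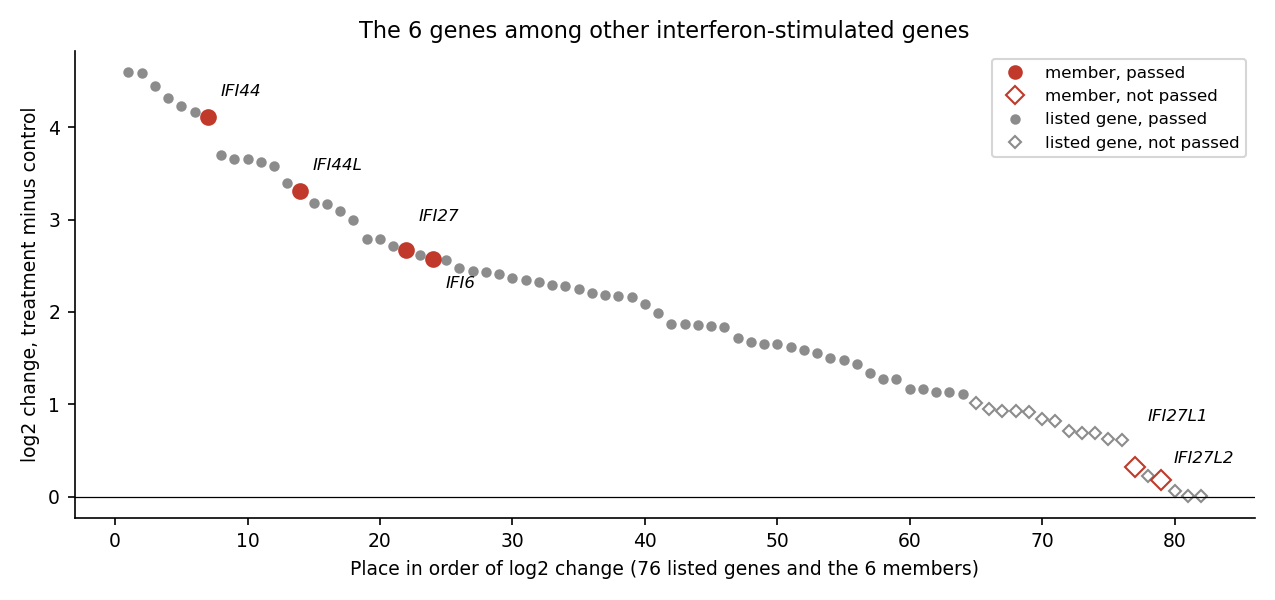
Log2 change, treatment minus control, of the 6 genes (red) and 76 other interferon-stimulated genes (grey) in order of size, with filled circles for genes that passed and open diamonds for those that did not. IFI44 (4.11) stands among the largest changes, IFI6 (2.58) and IFI27 (2.67) lie above the list's median of 1.87, and IFI27L1 and IFI27L2 lie near the low end.

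The response element core was present in promoters of 34 of the 55 listed genes that the promoter table holds, against 4.38% of all genes in it. Most listed genes rose, so they overlap with the risen genes counted next. With the 6 genes left out, genes with a cluster of their own symbol and a promoter in the table were counted by call. The core was found for 40 of 69 genes that rose (58%) and for 543 of 14164 that did not pass (3.83%). A second motif was searched, TTCNNNGAA, where N is any base. It was found for 21 of the 69 (30.4%) and for 1288 of the 14164 (9.09%). Of the 6 genes, IFI27 alone held it, from -101 to -93. That stretch shares bases with both response element matches of IFI27, so it is not a separate site. The part of either motif in the changes was not tested.

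Of 6 measured genes reported to work with members of the families, 0 passed limma, against 0.372% of all clusters, and 1 had an unadjusted p under 0.05, against 7.3%. A count of 0 among 6 is near that share, and their median log2 change was 0.0235. The IFI6 partner HSPA5, the main chaperone of the endoplasmic reticulum, had means of 1332 in treatment and 1424 in control arrays, a log2 change of -0.0934 (limma, adjusted p = 0.948). Among IFI27 partners, the nuclear receptor NR4A1 had means of 101 in treatment and 63.1 in control arrays, with groups that did not overlap and a change of 0.57 (adjusted p = 0.662). The ubiquitin ligase subunit SKP2 (0.13, adjusted p = 0.920) and the nuclear exporter XPO1 (-0.0836, adjusted p = 0.956) did not pass either. The kinases IKBKB (-0.23, adjusted p = 0.809) and IKBKE (0.18, adjusted p = 0.872), reported downstream of the FKBP5 interaction, did not pass, and FKBP5 itself was not analysed here.

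Of 10 markers of HEK293 cells, 9 were measured and 9 lay above the olfactory receptor level in both groups, among them the keratins KRT8 and KRT18 and the neurofilaments NEFL and NEFM. Of 6 measured leukocyte markers, 2 were above it, CD14 and CD68, while PTPRC, CD3E, LYZ and ITGAM were not, with means from 11.6 to 31.8 in treatment and from 12.1 to 35.0 in control arrays. The summed leukocyte markers ran from 515 to 689 in treatment and from 362 to 399 in control arrays, and CD68 alone had means of 303 in treatment and 105 in control arrays. Of 5 fibroblast markers 2 were above that level in both groups, COL1A1 and COL1A2. In control arrays COL1A2 was barely above it, with a mean of 50.8 against 50.7. The sum of the 5 ran from 428 to 457 in treatment and from 457 to 627 in control arrays. The part of other cells in the values was not tested. In bulk RNA, more responding cells and more RNA per cell cannot be told apart.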

How the data were processed

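Expression was measured on 6 Affymetrix Gene 1.0 ST arrays, 3 treatment and 3 control, grouped by sample title. The deposited values are linear intensities, 1 per cluster and array, with medians from 77.2 to 84.2. Partek is named, per the submitters' processing notes, and the background correction and normalization steps are not stated there. Gene names come from the platform annotation of 2016, with 19460 single-symbol clusters. The number of arrays limits the precision.

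An offset of 16 was added before log2, since intensities approach 0, and all 33297 clusters were tested with limma 3.58.1 (lmFit, eBayes) in R 4.3.3, two-sided, without a block, with Benjamini-Hochberg adjustment. A gene with several clusters was read at its brightest one. In data simulated from this comparison's 33297 clusters, the calls recovered 0% of changes at 1.5-fold, 22% at 2-fold, 82% at 4-fold and 98% at 8-fold. These are folds of intensity + 16, not ratios of mean intensities. The changed clusters were drawn only from those above a set mean intensity, so these rates do not cover dim clusters. Pairs of genes were compared by an exact permutation test over arrays.

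The 6 genes, the lists, the offset and the tests were chosen with earlier results of these data known. Genes named are the 6, the 3 nearest profiles of each that passed, the neighbours, the 4 listed genes with the lowest p and those that did not pass, and the partners. Of the neighbours, examples are given. Alternatives were other offsets, normalizations, filters, variance priors, a replicate block and leaving out each array. Promoters were searched with exact letters, and chromosome positions come from RefSeq, since no build is named for the array files.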

Additional observations from a re-analysis of the deposited data

How the results depend on the processing

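Over 17 alternatives each, IFI44 and IFI44L passed in all, IFI6 in 16 and IFI27 in 15, and IFI27L1 and IFI27L2 in none. On a log2 without offset, 2 of the 6 genes passed instead of 4, IFI6 (2.64, limma adjusted p = 0.082) and IFI27 (3.25, 0.166) losing their calls, and at offset 1 IFI27 (3.20, 0.0686) did. The count of all clusters was 124, and it became 40 without offset, 58 at offset 1 and 69 to 129 leaving out 1 array, with 69 without control replicate 1 and 82 without treatment replicate 2. The count of 60 listed genes became 25 without offset and 36 at offset 1. Leaving out 1 array gave -0.019 to 0.32 for IFI27L2, the lowest without treatment replicate 3. Differences of log2 changes without offset, at offset 1 and at offset 50 were 1.14, 1.12 and 0.37 for IFI44 minus IFI44L, 0.61, 0.57 and -0.44 for IFI27 minus IFI6, 2.88, 2.84 and 1.76 for IFI27 minus IFI27L1, and 3.05, 3.00 and 1.88 for IFI27 minus IFI27L2. IFI27 minus IFI6 ran from -0.10 to 0.32 leaving out 1 array. The cause was not tested. A larger offset shrinks dim values by construction.

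Arrays with the same replicate number gave no sign of pairing: their deviations from the group means correlated at -0.166, 0.0839 and -0.356. For arrays with different numbers the correlations ran from -0.187 to 0.363. A pairing other than by number was not tested. With the replicate number as a block 105 clusters, 4 of the 6 genes and 55 listed genes passed. Control values below the olfactory receptor level limit IFI27 and IFI44, whose control levels cannot be told from background.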
